A study of Mus musculus with 6 samples.

Results

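Aminoacyl-tRNA synthetases and targets of the transcription factor ATF4 were followed in group 2 innate lymphoid cells (ILC2s) exposed to Yoda1. ILC2s are tissue lymphocytes that lack antigen receptors and secrete cytokines of the type 2 response. Yoda1 is a chemical agonist of Piezo1, a channel that admits calcium when the membrane is stretched. The members were named by gene symbol as genes of this pathway, and all 36 were found among the 17546 genes of the deposited count table. They are 19 cytosolic synthetase genes, 6 genes of serine, asparagine and proline synthesis, 9 stress factors and 2 kinases of the translation factor eIF2. The data were 3 libraries of cells given 10 µM Yoda1 for 24 h (Yoda1 4, 5 and 6), set against 3 libraries of cells given the solvent DMSO for the same time (DMSO 1, 2 and 3). All cells were sorted from BALB/c lungs after the mice had been given IL-33 intranasally, 1 µg at each of 3 injections. The culture medium of both groups held 10 ng/mL of IL-2 and the same amount of IL-7, and the labels name no genetic change. The labels state neither the age of the mice nor whether a group's libraries are from different animals. DMSO 2 and 3 share a label number, as do Yoda1 4 and 5, so p-values measure only the spread between these libraries, which may be technical.

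Synthetases join each amino acid to its transfer RNA, the step that feeds the ribosome. When amino acids run short, when unfolded protein builds up in the endoplasmic reticulum or when mitochondria fail, kinases phosphorylate eIF2, which slows general translation and favours translation of ATF4. ATF4 then binds C/EBP-ATF response elements and raises genes of amino acid uptake and synthesis, several synthetase genes and the stress factors CHOP, TRIB3 and CHAC1. Activated lymphocytes use the same genes to support growth. Because ATF4 is controlled largely at translation, its transcript level does not report its activity.

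The libraries carried the transcripts of ILC2s and small amounts of others. Of 13 ILC2 markers all were detected, with Gata3, the lineage factor, at 781 to 1032 CPM (a gene's count relative to its library's TMM-scaled total) in the Yoda1 libraries and 922 to 991 CPM in the DMSO libraries, although Thy1 was near 0, at most 1.23 CPM with Yoda1 and 2.87 CPM with DMSO. Of these markers 1 was called higher in edgeR, Arg1 (446 to 476 CPM with Yoda1, against 208 to 273 CPM with DMSO), and 2 were called lower, Il2ra (682 to 776 CPM with Yoda1, against 1144 to 1182 CPM with DMSO) and Icos (443 to 504 CPM with Yoda1, against 849 to 870 CPM with DMSO). The 10 epithelial markers summed to 55.9 to 77.7 CPM in the Yoda1 libraries, against 91.8, 425 and 409 CPM in DMSO 1, 2 and 3. Epcam made up most of the Yoda1 sums, at 48.8 to 71.6 CPM, against 64.5 to 67.4 CPM in the DMSO libraries. Scgb1a1, a club cell gene, had at most 0.0597 CPM in a Yoda1 library, against 0, 301 and 295 CPM in DMSO 1, 2 and 3. The 5 markers of NK cells and ILC1s that were measured summed to 43.9 to 63.3 CPM with Yoda1, against 154 to 210 CPM with DMSO. Gzma and Gzmb, both called lower, made up most of that sum, and the lineage factors Tbx21 and Eomes had at most 0.835 CPM in a Yoda1 library and 0.778 CPM in a DMSO library. The 6 T cell markers in the table summed to 312 to 467 CPM with Yoda1, against 306 to 358 CPM with DMSO, mostly from Trbc1 and Trbc2, with Cd3e at 0.346 to 1.31 CPM with Yoda1, against 1.92 to 2.69 CPM with DMSO. The part of other cells in the values that follow was not tested. In bulk RNA, fewer cells that express a gene and less RNA per cell cannot be told apart.

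None of the 36 genes passed the test over all genes. Total counts ran from 15355158 to 17322050 in the Yoda1 libraries and from 14214048 to 31627519 in the DMSO libraries, and 35 of the 36 genes had enough counts to be tested. In the quasi-likelihood fit of edgeR, at a Benjamini-Hochberg adjusted p under 0.05, 0 of 35 were called, beside 1.49% of the 13325 genes tested (76 higher and 123 lower with Yoda1). Of the 199 calls 38.2% were higher, and with upper quartile scaling 24.7% of 231 were. The lowest adjusted p was 0.0667, for Phgdh. Without adjustment, 2 members had a p under 0.05 with a positive and 4 with a negative change, beside 7.39% and 7.11% of all genes tested. DESeq2 called Ppp1r15a higher and Phgdh and Psat1 lower, beside 3.11% and 3.39% of all genes (6.5% either way). Limma voom called Phgdh lower and no member higher, beside 1.34% and 0.908% of all genes (2.25% either way). The Yoda1 and DMSO libraries did not overlap for 8 of 35 members, which is 22.9% beside 22.6% of all genes tested, so the share of separated members was close to the background. The roles differed in where their values lay. The median log2 change (Yoda1 over DMSO) was 0.29 for the stress factors, -0.10 for the synthetases and -0.38 for the synthesis genes, beside 0.01 for all genes tested. No test was made of these medians.

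**Figure D1:**
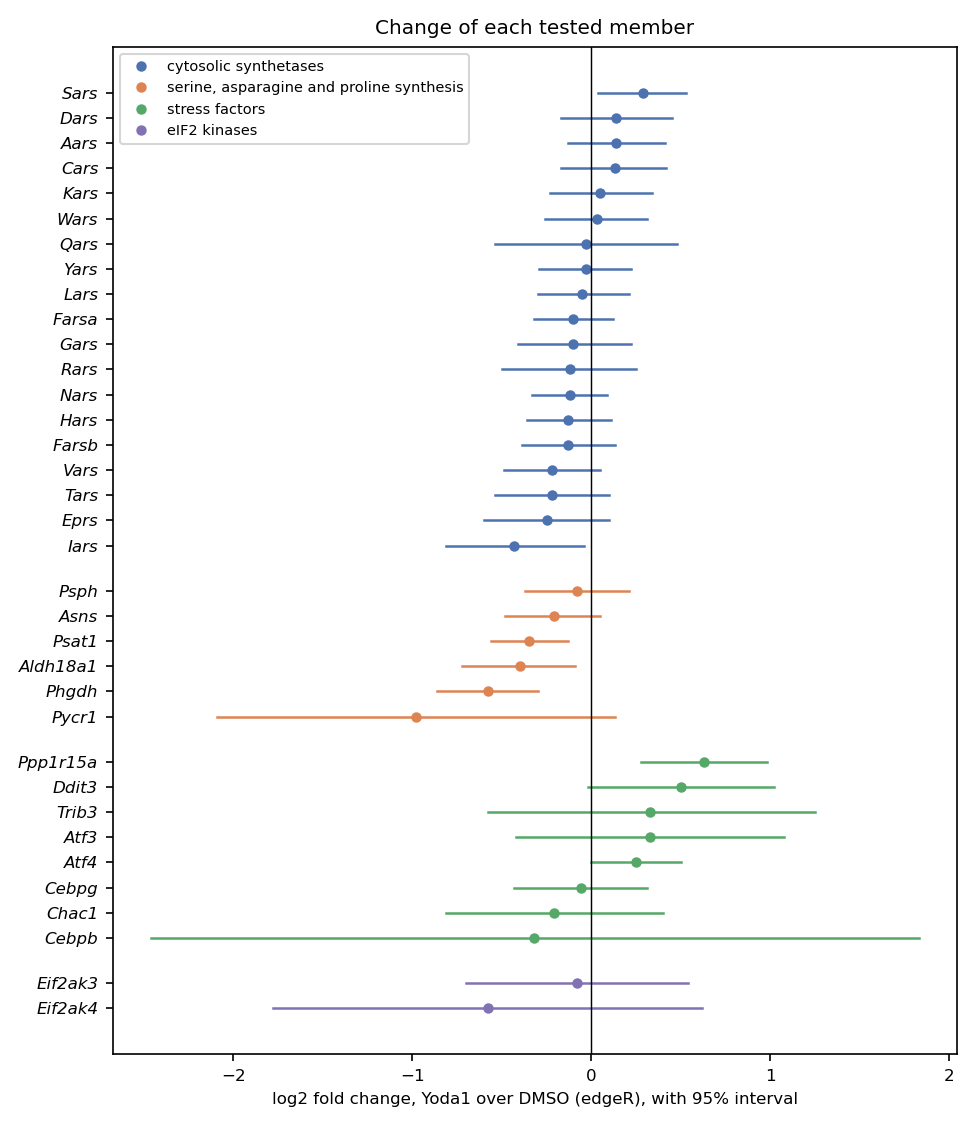
Log2 fold change of each tested member, Yoda1 over DMSO, as a point with its 95% interval from the edgeR fit, grouped by role. The synthetases lie between -0.43 and 0.29, all 6 synthesis genes lie below 0, and 5 of 8 tested stress factors lie above 0.

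Proximal promoters were searched for the C/EBP-ATF response element, since it is the site through which ATF4 acts on many of these genes. RefSeq promoters on GRCm38.p6, from 250 bases before to 50 after the start, were given for 29 of the 36 members; Cars, Hars, Lars, Nars, Rars, Vars and Wars had no entry. The core TGATGNAA, read on both strands (its reverse complement is TTNCATCA), was found in 10 of the 29 members, which is 34.5%, beside 4.51% of 27025 genes in the same table. These were Aars, Gars, Iars, Tars, Yars, Asns, Pycr1, Atf3, Trib3 and Chac1. The cyclic AMP response element TGACGTCA was found in Ppp1r15a alone among the members, beside 2.03% of all genes, and no member promoter held both. A match describes letters in this window and does not show binding. The members were named as genes of the ATF4 pathway, so their share beside that of all genes is not an independent finding. The promoters below are shown because they represent the synthetase with the lowest change, asparagine synthetase, 2 stress factors and the member with the highest log2 change. They are written 5′ to 3′ in the direction of transcription, with the matched element in capitals.
Iars, chr13:49681880-49682179, plus strand: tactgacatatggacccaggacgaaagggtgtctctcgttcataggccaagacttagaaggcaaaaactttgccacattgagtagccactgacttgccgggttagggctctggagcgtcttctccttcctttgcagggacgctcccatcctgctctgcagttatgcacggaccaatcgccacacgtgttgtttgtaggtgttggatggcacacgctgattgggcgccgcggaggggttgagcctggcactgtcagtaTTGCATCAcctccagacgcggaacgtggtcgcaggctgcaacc
Asns, chr6:7693160-7693459, minus strand: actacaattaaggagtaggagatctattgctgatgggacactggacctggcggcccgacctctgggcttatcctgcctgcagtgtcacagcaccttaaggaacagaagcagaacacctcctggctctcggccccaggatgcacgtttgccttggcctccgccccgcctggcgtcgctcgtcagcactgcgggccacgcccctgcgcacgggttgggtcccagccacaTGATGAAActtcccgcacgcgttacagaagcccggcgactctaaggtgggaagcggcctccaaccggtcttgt
Chac1, chr2:119350992-119351291, plus strand: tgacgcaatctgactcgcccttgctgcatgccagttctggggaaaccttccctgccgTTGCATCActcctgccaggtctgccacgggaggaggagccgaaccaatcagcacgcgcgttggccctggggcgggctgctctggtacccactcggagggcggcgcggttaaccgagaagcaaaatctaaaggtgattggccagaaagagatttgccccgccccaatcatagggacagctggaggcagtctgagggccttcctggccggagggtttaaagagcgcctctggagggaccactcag
Atf3, chr1:191183284-191183583, minus strand: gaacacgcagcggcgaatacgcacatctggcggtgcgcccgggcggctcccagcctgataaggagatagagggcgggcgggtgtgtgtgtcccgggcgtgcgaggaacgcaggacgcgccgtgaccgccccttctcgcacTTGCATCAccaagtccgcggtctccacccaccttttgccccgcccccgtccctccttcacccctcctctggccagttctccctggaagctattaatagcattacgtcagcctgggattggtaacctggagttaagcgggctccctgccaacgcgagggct
Ppp1r15a, chr7:45526219-45526518, minus strand: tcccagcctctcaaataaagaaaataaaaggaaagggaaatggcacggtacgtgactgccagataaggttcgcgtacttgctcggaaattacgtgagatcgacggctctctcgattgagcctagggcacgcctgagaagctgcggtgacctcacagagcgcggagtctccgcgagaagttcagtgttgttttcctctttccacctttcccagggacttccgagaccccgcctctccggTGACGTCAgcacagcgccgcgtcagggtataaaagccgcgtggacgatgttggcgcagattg

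The members whose promoters held TGATGNAA did not share a direction. Of these 10 genes 3 had positive and 7 negative log2 changes, with a median of -0.15 and a range from -0.98 (Pycr1) to 0.33. The 18 tested members with a promoter entry and no match had 6 positive and 12 negative changes, with a median of -0.08. None of either set was called in edgeR. Phgdh, Psat1 and Ppp1r15a, which DESeq2 called, were among the 18 without a match.

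The first enzymes of serine synthesis lay below DMSO in every Yoda1 library. Phgdh, phosphoglycerate dehydrogenase, which commits a glycolytic intermediate to serine, lies on chromosome 3 at 98313170 to 98339990 (GRCm38). It stood at 253, 193 and 209 CPM in Yoda1 4, 5 and 6, against 351, 305 and 321 CPM in DMSO 1, 2 and 3. Every Yoda1 library was below every DMSO library. The log2 change was -0.58 (SE 0.12, 95% interval -0.86 to -0.30; Benjamini-Hochberg adjusted p = 0.0667 in edgeR), and the adjusted p ran from 0.0375 to 0.223 when each library was left out in turn. Only the fit without Yoda1 4 was under 0.05. Psat1, phosphoserine aminotransferase, the next enzyme of the pathway (chromosome 19, 15904678 to 15947337), had 245, 241 and 238 CPM in the Yoda1 libraries, against 287, 305 and 329 CPM in the DMSO libraries. The 3 Yoda1 values lay within 1.03-fold of each other and below all DMSO values, and the log2 change was -0.35 (SE 0.09; Benjamini-Hochberg adjusted p = 0.123 in edgeR). Psph, the phosphatase that completes serine, had 76.1, 83.8 and 89.5 CPM in the Yoda1 libraries, against 92.3, 82.3 and 89.1 CPM in the DMSO libraries. Its groups overlapped, unlike those of the enzymes before it, and its 95% interval of the log2 change ran from -0.37 to 0.21.

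Proline and asparagine synthesis genes had negative changes of different certainty. Aldh18a1, which makes the precursor of proline from glutamate, had 104, 81.7 and 88.3 CPM in Yoda1 4, 5 and 6, against 131, 111 and 120 CPM in DMSO 1, 2 and 3. The groups did not overlap, and the log2 change of -0.40 (SE 0.14) did not pass (Benjamini-Hochberg adjusted p = 0.215 in edgeR). Pycr1, the mitochondrial reductase that completes proline, was scarce, with 3.48, 2.65 and 8.89 CPM in the Yoda1 libraries, against 12.5, 9.69 and 7.57 CPM in the DMSO libraries. Yoda1 6 lay above DMSO 3, and the 95% interval of its log2 change ran from -2.09 to 0.13. Asns, asparagine synthetase, had 182, 156 and 163 CPM in the Yoda1 libraries, against 178, 213 and 189 CPM in the DMSO libraries, and the groups overlapped through Yoda1 4 and DMSO 1. Its log2 change was -0.21 (SE 0.12, 95% interval -0.48 to 0.05). Summed over the 6 genes, the level was 863, 758 and 796 CPM in Yoda1 4, 5 and 6, against 1052, 1025 and 1056 CPM in DMSO 1, 2 and 3. Of these 6 genes, Phgdh, Psat1 and Aldh18a1 lay lower without overlap, as did 12% of all genes tested.

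**Figure D2:**
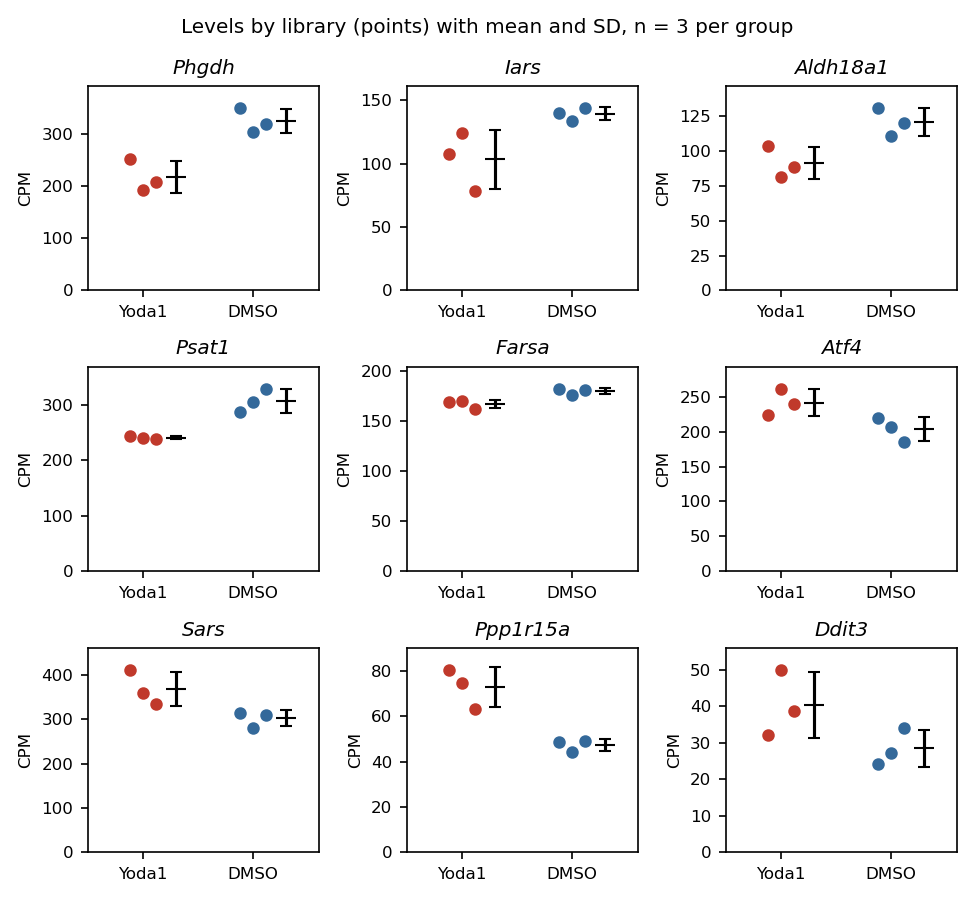
Level in CPM (y axis from 0) of the 8 members whose groups did not overlap, and of Ddit3, whose groups did. Points are the 3 Yoda1 and the 3 DMSO libraries, with the mean and SD beside them; Phgdh, Iars, Aldh18a1, Psat1 and Farsa lie lower with Yoda1, and Atf4, Sars and Ppp1r15a higher.

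The cytosolic synthetases stayed close to their DMSO levels. Of 19 genes 13 had negative and 6 positive log2 changes, from -0.43 to 0.29, and none was called in edgeR, DESeq2 or limma voom. The unadjusted edgeR p was under 0.05 for 1 with a positive change (Sars) and 1 with a negative change (Iars). Beside these stand 7.39% and 7.11% of all genes tested. The 95% interval lay inside a 2-fold change in either direction, that is within 1 on the log2 scale, for all 19. The same held for 5 of the 6 synthesis genes and for 6863 of the 13325 genes tested. Summed over the 19 genes, the level was 4345, 3873 and 3558 CPM in Yoda1 4, 5 and 6, against 4035, 4095 and 4019 CPM in DMSO 1, 2 and 3. The Yoda1 libraries spanned both sides of the DMSO range. Yoda1 4 was the highest of the 6 libraries for 8 of the 19 genes and Yoda1 6 the lowest for 11. Over all genes tested, Yoda1 4 was the highest for 19.3%. The share of all genes with Yoda1 6 lowest was not computed, so the count for Yoda1 6 has no background.

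Iars, isoleucyl-tRNA synthetase, on chromosome 13 at 49682100 to 49734267, had the lowest change of the class. It stood at 108, 124 and 78.3 CPM in Yoda1 4, 5 and 6, against 140, 134 and 144 CPM in DMSO 1, 2 and 3. The groups did not overlap, although the Yoda1 values spread over 1.59-fold. Its log2 change was -0.43 (SE 0.17, 95% interval -0.81 to -0.04; Benjamini-Hochberg adjusted p = 0.296 in edgeR). Eprs, which charges both glutamate and proline, had 232, 245 and 176 CPM in the Yoda1 libraries, against 228, 297 and 251 CPM in the DMSO libraries, with overlap and a log2 change of -0.25 (SE 0.15). Sars, seryl-tRNA synthetase, on chromosome 3 at 108424865 to 108445209, stood at the other end with 411, 359 and 335 CPM in the Yoda1 libraries, against 314, 281 and 310 CPM in the DMSO libraries. All 3 Yoda1 values were above the DMSO values, and the log2 change was 0.29 (SE 0.11, 95% interval 0.04 to 0.53; Benjamini-Hochberg adjusted p = 0.26 in edgeR). Dars, aspartyl-tRNA synthetase, came next at 133, 112 and 106 CPM in the Yoda1 libraries, against 111, 95.5 and 112 CPM in the DMSO libraries, with overlap and a log2 change of 0.14 (SE 0.14). Farsa, the alpha chain of phenylalanyl-tRNA synthetase, had 169, 170 and 162 CPM in the Yoda1 libraries, against 182, 176 and 181 CPM in the DMSO libraries. These groups did not overlap either, but the log2 change was -0.10 (SE 0.10). Its partner chain Farsb overlapped between groups at a log2 change of -0.13 (SE 0.11).

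The medians of synthetases inside and outside the multi-synthetase complex lay close together. Dars, Eprs, Iars, Kars, Lars, Qars and Rars encode enzymes of the multi-synthetase complex, and their median log2 change was -0.05, with 5 of 7 negative. The 12 genes outside it had a median of -0.10, with 8 negative. Mars1, methionyl-tRNA synthetase, a further enzyme of the complex from the list of other pathway genes, had 241 ± 12 CPM with Yoda1 and 251 ± 21 CPM with DMSO (SD, n = 3 each). Kars, lysyl-tRNA synthetase, and Lars, leucyl-tRNA synthetase, had log2 changes of 0.05 (SE 0.13) and -0.05 (SE 0.11). Qars, glutaminyl-tRNA synthetase, spread over 1.78-fold within the Yoda1 group, at 124, 69.9 and 78.1 CPM in the Yoda1 libraries, against 106, 90.0 and 81.6 CPM in the DMSO libraries. Wars, tryptophanyl-tRNA synthetase, which interferon gamma induces, had 119 ± 9 CPM with Yoda1 and 116 ± 11 CPM with DMSO (SD, n = 3 each). The remaining genes, Aars, Cars, Gars, Hars, Nars, Rars, Tars, Vars and Yars, charge alanine, cysteine, glycine, histidine, asparagine, arginine, threonine, valine and tyrosine in that order. Their groups overlapped, with log2 changes from -0.22 to 0.14.

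**Figure D3:**
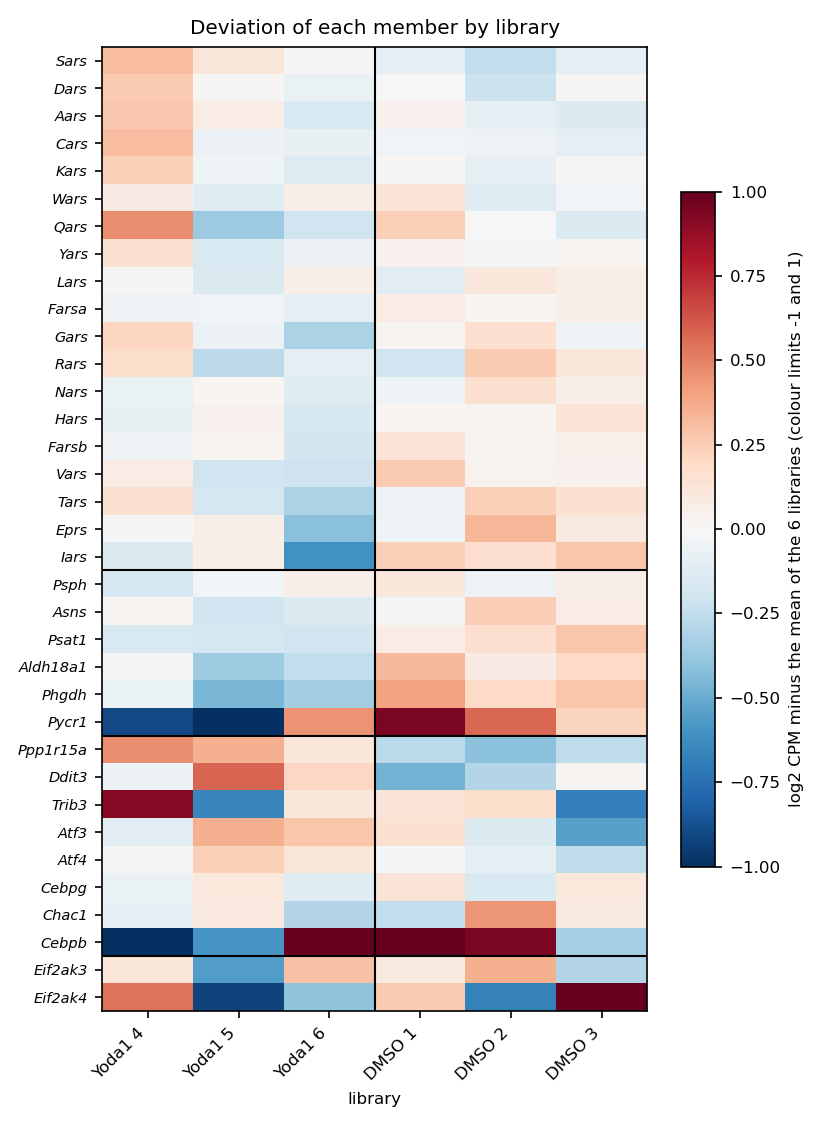
Deviation of each tested member's log2 CPM from its mean over the 6 libraries, by library, with members grouped by role and colours limited at -1 and 1. Phgdh, Psat1 and Aldh18a1 are lower in all 3 Yoda1 libraries than in any DMSO library, and Yoda1 4 is the highest library for 8 of 19 synthetases.

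Among the stress factors, values for the eIF2 phosphatase subunit and for ATF4 lay above DMSO. Ppp1r15a, which encodes GADD34, the inducible regulatory subunit of a phosphatase acting on eIF2, lies on chromosome 7 at 45522916 to 45526268. It had 80.5, 74.8 and 63.1 CPM in Yoda1 4, 5 and 6, against 48.6, 44.1 and 49.0 CPM in DMSO 1, 2 and 3. Every Yoda1 library was above every DMSO library, by a log2 change of 0.63 (SE 0.15, 95% interval 0.28 to 0.98), which did not pass over all genes (Benjamini-Hochberg adjusted p = 0.0921 in edgeR; from 0.0608 to 0.305 with each library left out in turn). Atf4 itself, on chromosome 15 at 80255184 to 80257541, had 223, 261 and 240 CPM in the Yoda1 libraries, against 219, 206 and 185 CPM in the DMSO libraries. The groups were separated by the narrow step between Yoda1 4 and DMSO 1, and the log2 change was 0.25 (SE 0.11; Benjamini-Hochberg adjusted p = 0.35 in edgeR). Ddit3, which encodes CHOP, a factor induced late in the response, had 32.1, 49.9 and 38.6 CPM in the Yoda1 libraries, against 24.1, 27.3 and 34.0 CPM in the DMSO libraries. DMSO 3 exceeded Yoda1 4, and the log2 change was 0.50 (SE 0.23, 95% interval -0.02 to 1.02). The annotation used here for positions holds 2 entries named Ddit3, so its count may be uncertain. How the deposited counts treated such entries is not known.

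Chac1, Trib3 and Atf3, ATF4 targets known to mark a strong response, had overlapping groups. Chac1, an enzyme that degrades glutathione, had 14.1, 16.0 and 12.2 CPM in the Yoda1 libraries, against 12.6, 20.3 and 15.9 CPM in the DMSO libraries, with overlap and a log2 change of -0.21 (SE 0.26). Trib3, a pseudokinase that restrains ATF4 and CHOP, had 39.4, 13.3 and 22.6 CPM in the Yoda1 libraries, against 22.9, 23.6 and 13.0 CPM in the DMSO libraries. Yoda1 4 was the highest library and Yoda1 5 among the lowest, so the sign of its change depended on Yoda1 4. Without that library the log2 change was -0.15, against 0.33 (SE 0.40) with it. Atf3, a repressor induced by many stresses, stood at 8.32 ± 1.36 CPM with Yoda1 and 6.60 ± 1.55 CPM with DMSO (SD, n = 3 each), with a 95% interval of the log2 change from -0.42 to 1.08. Atf5, a relative of ATF4 tied to the mitochondrial stress response, was under the count filter, with at most 0.716 CPM in a Yoda1 library and 1.82 CPM in a DMSO library. The floor of 3 counts in a library was worth 0.195 CPM in the shallowest Yoda1 library and 0.211 CPM in the shallowest DMSO library, for counting error alone.

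Of the C/EBP partners of ATF4, Cebpb varied widely between libraries. It had 1.29, 8.25 and 44.3 CPM in Yoda1 4, 5 and 6, against 33.2, 23.9 and 9.90 CPM in DMSO 1, 2 and 3. The Yoda1 libraries spanned 34.4-fold and enclosed the DMSO range, so no change could be stated; the 95% interval ran from -2.46 to 1.83. Macrophages also express Cebpb strongly. The summed level of 9 myeloid markers was 27.2, 28.6 and 21.1 CPM in Yoda1 4, 5 and 6. It was 14.1, 15.5 and 11.9 CPM in DMSO 1, 2 and 3. Single markers differed in their order over the libraries. In Yoda1 4, 5 and 6, Lyz2 had 6.32, 9.92 and 11.2 CPM, and Cd68 had 12.3, 13.8 and 8.41 CPM. Cd14 had 6.71, 3.4 and 0.179 CPM in these libraries. In DMSO 1, 2 and 3, Lyz2 had 4.91, 1.29 and 1.77 CPM, and Cd68 had 6.4, 10.2 and 7.43 CPM. Cd14 had 1.27, 1.36 and 1.06 CPM in these DMSO libraries. Not all of the 9 markers lay higher with Yoda1. Adgre1 had 0 CPM in every Yoda1 library, against 0.0552, 1.67 and 1.27 CPM in DMSO 1, 2 and 3. Csf1r had 0.194, 0 and 0.239 CPM in the Yoda1 libraries, against 0.331, 0.252 and 0.0707 CPM in the DMSO libraries. The part of myeloid cells in the Cebpb values was not tested. Cebpg, the partner that forms dimers with ATF4 at response elements, had 47.3 ± 4.0 CPM with Yoda1 and 49.3 ± 5.1 CPM with DMSO (SD, n = 3 each), a log2 change of -0.06 (SE 0.16).

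Neither eIF2 kinase separated the groups. Eif2ak3 encodes PERK, the sensor of the endoplasmic reticulum, and had 31.0, 19.4 and 34.9 CPM in the Yoda1 libraries, against 30.3, 36.5 and 23.3 CPM in the DMSO libraries. Eif2ak4 encodes GCN2, the sensor of uncharged transfer RNA, and had 13.9, 5.02 and 7.22 CPM in the Yoda1 libraries, against 11.4, 5.96 and 21.8 CPM in the DMSO libraries. The groups overlapped for both genes, and the 95% interval for Eif2ak4 ran from -1.78 to 0.62.

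Levels of different genes were compared per kb of the principal transcript in GENCODE M21. On that scale the means of the synthetases ran from 23.4 (Iars) to 137 (Nars) with Yoda1 and from 31.5 (Iars) to 148 (Nars) with DMSO. Atf4 had 140 ± 11 CPM per kb with Yoda1, above these means, and 118 ± 10 with DMSO, within them (SD, n = 3 each). Phgdh was the highest member in the DMSO libraries at 172 ± 13 CPM per kb, and stood at 115 ± 16 in the Yoda1 libraries (SD, n = 3 each). Of 33 pairs of neighbours in this order, the ranges over libraries overlapped for 31 in the Yoda1 libraries and for 25 in the DMSO libraries. Atf4, Nars and Gars led in the Yoda1 libraries, and Phgdh, Nars and Gars in the DMSO libraries. The factors Ppp1r15a, Cebpg, Chac1, Trib3 and Atf3 were lower, from 25.9 for Ppp1r15a to 4.19 for Atf3 with Yoda1 and from 16.8 for Ppp1r15a to 3.33 for Atf3 with DMSO. Isoform use in these cells was not measured, so the lengths are those of the annotation.

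**Figure D4:**
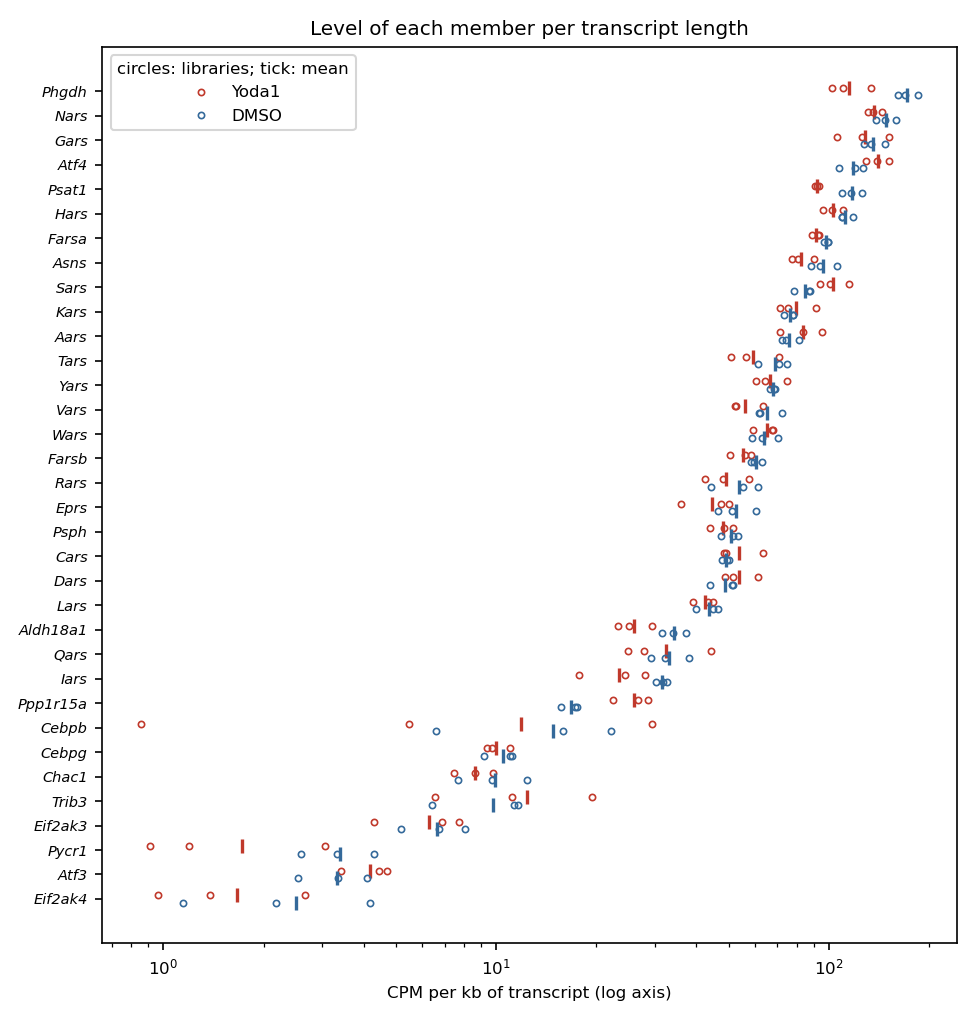
Level of each tested member in CPM per kb of principal transcript on a log axis, with 3 libraries per group as circles and the mean as a tick, ordered by the DMSO mean. Ddit3 is left out because it has no single annotated length; Phgdh and Nars lead in DMSO, and Eif2ak4, Atf3 and Pycr1 are lowest.

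Other genes of the pathway were taken from 4 lists of 82 symbols, 76 of them in the table and 73 tested. In edgeR 1 was higher and 1 lower, and 71 did not pass, beside 0.57% and 0.923% of all genes. Both calls belonged to the list of other ATF4 targets, of which 28 were tested. Slc3a2, the heavy chain of the leucine and cystine exchangers, fell to 664 ± 16 CPM with Yoda1, against 1016 ± 15 CPM with DMSO (SD, n = 3 each), a log2 change of -0.61 (SE 0.07; Benjamini-Hochberg adjusted p = 0.00707 in edgeR). The adjusted p of Slc3a2 was 0.0511, 0.0658 and 0.0723 in edgeR (Benjamini-Hochberg) without DMSO 1, 2 or 3, while its log2 change stayed at -0.60, -0.62 and -0.63. Sqstm1, an autophagy receptor gene that NRF2 also induces, rose by 1.24 (SE 0.07) on the log2 scale (Benjamini-Hochberg adjusted p = 0.000183 in edgeR). The median of the list was -0.27, and 8 of 28 lay lower and 4 higher without overlap, beside 12% and 10.6% of all genes tested. Genes of mitochondrial one-carbon metabolism, which takes up the carbon of serine, were among these, and they were picked here after their values were seen. Shmt2, serine hydroxymethyltransferase, had 283 ± 23 CPM with Yoda1 and 394 ± 31 CPM with DMSO, and Mthfd2 had 123 ± 18 CPM with Yoda1 and 183 ± 7 CPM with DMSO (SD, n = 3 each). Mthfd1l, the mitochondrial enzyme that releases formate, had a log2 change of -0.80 (SE 0.21). None of these passed in edgeR, with Benjamini-Hochberg adjusted p of 0.0688 for Shmt2, 0.0793 for Mthfd2 and 0.114 for Mthfd1l, whereas DESeq2 called all of them lower. Bcat1, a branched-chain aminotransferase, and Nupr1, a stress-induced chromatin protein, had log2 changes of -0.78 (SE 0.17) and -0.90 (SE 0.22) and did not pass in edgeR. Map1lc3b, an autophagosome protein, had a log2 change of 0.47 (SE 0.11) and did not pass in edgeR. Slc7a5, the leucine carrier that pairs with Slc3a2, had 215 ± 21 CPM with Yoda1 and 293 ± 26 CPM with DMSO (SD, n = 3 each), without overlap (Benjamini-Hochberg adjusted p = 0.105 in edgeR). Got1, an aspartate aminotransferase, had a log2 change of -0.45 (SE 0.14) and did not pass in edgeR. DESeq2 called Bcat1, Nupr1, Slc7a5 and Got1 lower and Map1lc3b higher.

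In the list of mitochondrial synthetases 14 genes had positive and 6 negative log2 changes, and of the eIF2 machinery 9 had positive and 6 negative ones. The groups did not overlap for 25% and 20% of them, beside 22.6% of all genes tested. None of the 20 tested genes of the mitochondrial list passed in edgeR or DESeq2. This list also holds Qrsl1, Gatb and Gatc, which encode subunits of an amidotransferase and not synthetases. Their log2 changes were 0.01, 0.79 and 0.10. Unadjusted edgeR p under 0.05 was found for Hars2 and Yars2 (positive) and Fars2 (negative). These are 2 and 1 genes, beside 7.39% and 7.11% of all genes tested. The median log2 change of all 20 genes of this list was 0.18, beside -0.10 for the cytosolic synthetases. Gars and Kars, counted as cytosolic, each encode the mitochondrial enzyme as well, so the lists are not a clean split. Of 17 pairs of a cytosolic and a mitochondrial enzyme for the same amino acid, Eprs standing in 2 of them and Mars1 taken from the list of other genes, the mitochondrial gene had the higher log2 change in 11, as for isoleucine (0.50 for Iars2 and -0.43 for Iars) and histidine (0.50 for Hars2 and -0.13 for Hars). In the other pairs it had the lower change, as for serine (-0.40 for Sars2 and 0.29 for Sars) and tryptophan (-0.55 for Wars2 and 0.03 for Wars). The difference between the enzymes of a pair was not tested. None of 15 genes of eIF2, its exchange factor eIF2B and their regulators passed in edgeR or DESeq2. The unadjusted edgeR p was under 0.05 for Eif2b4 and Impact, both positive, beside 7.39% of all genes tested. The median log2 change of these 15 genes was 0.13. Of 10 further synthetases, complex scaffolds and editing enzymes none passed in edgeR. Aarsd1, an editing enzyme for alanine transfer RNA, had a negative change with an unadjusted edgeR p under 0.05, beside 7.11% of all genes tested. DESeq2 called Aarsd1 lower, beside 3.39% of all genes.

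**Figure D5:**
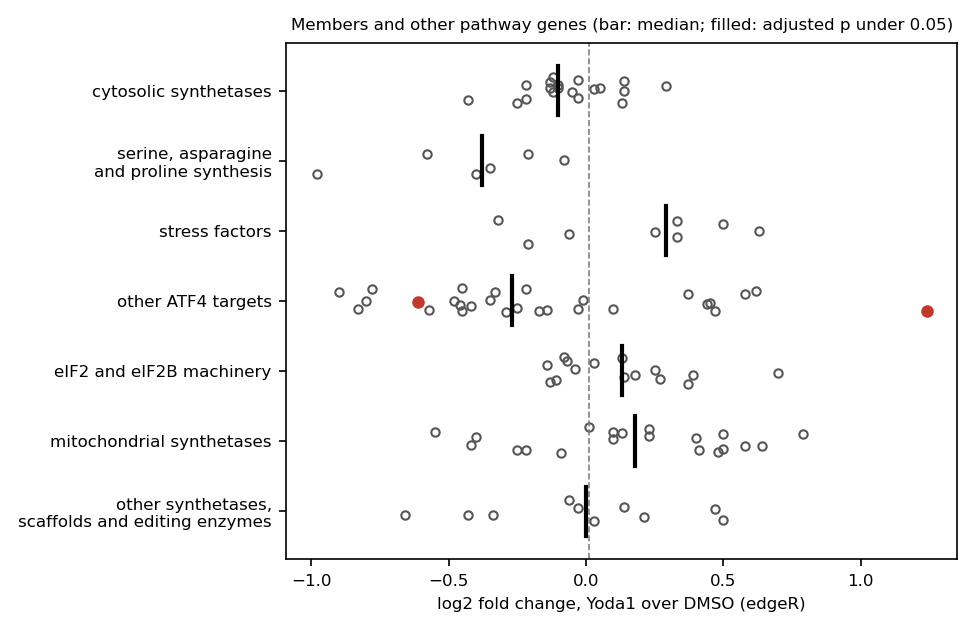
Log2 fold change, Yoda1 over DMSO, of the tested genes of 3 member roles and of 4 lists of other pathway genes; each circle is a gene, a filled circle passed at an adjusted p under 0.05, the bar is the list's median and the dashed line the median of all genes tested. The filled circles are Slc3a2 at -0.61 and Sqstm1 at 1.24.

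DMSO 2 and 3 carried the club cell transcripts. DMSO 1 was not free of epithelial transcripts either. The epithelial marker Sftpc had 15.2 CPM in DMSO 1, against at most 0.289 CPM in a Yoda1 library. Against DMSO 1 alone the log2 changes were -0.69 for Phgdh, -0.26 for Psat1, -0.53 for Aldh18a1, -0.44 for Iars and -0.13 for Farsa. They were 0.58 for Ppp1r15a, 0.22 for Sars and 0.13 for Atf4. The sign of these genes was fixed by the choice of members without overlap. Of all 35 tested members 4 turned their sign against DMSO 1 alone, Lars to 0.07, Rars to 0.14, Wars to -0.11 and Chac1 to 0.16. This comparison rests on 1 DMSO library.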

How the data were processed

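RNA from 6 samples of sorted lung ILC2s was sequenced, 3 after Yoda1 and 3 after DMSO. The values deposited by the authors are expected counts (estimates, not always whole) in 1 table, whose name mentions Partek. The genome build was mm10, per the submitters' processing notes; no source used here gives the aligner, counting method, strand setting or filters. Without a stated strand setting, overlapping antisense genes and near-identical copies stay uncertain. The table's own treatment column names the control PBS where the sample labels name DMSO, and the labels were followed. From 57.1% to 66.5% of a library's values were whole within 0.001; all were rounded.

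The test was edgeR 4.0.16 in R 4.3.3: TMM factors, filterByExpr (minimum count 10, minimum total 15), quasi-likelihood F test with no covariate, and Benjamini-Hochberg adjustment over 13325 genes at 0.05. The SE is the size of the log2 change over the square root of F, and intervals use the t quantile. Alternatives were other scalings and filters, DESeq2 1.42.0, limma voom 3.58.1, the label suffix as a covariate, summed libraries and each library left out.

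The members and lists were chosen with earlier results of these data known. Values in every library are given for members whose groups did not overlap, for Atf4, and for the 2 highest and 2 lowest changes of each role, with a few more; other pathway genes are named where they passed or where so stated. Positions are from GENCODE M21 (GRCm38, the same assembly as mm10); of 112 symbols 110 had a single match.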

Additional observations from a re-analysis of the deposited data

How the results depend on the processing

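No member was called higher in edgeR under any scaling or filter, and no synthetase was called under any setting run. DESeq2 called 1 member higher, a stress factor. Members called lower, all genes of amino acid synthesis, numbered 1 with upper quartile scaling, 1 with a filter of at least 10 CPM in 3 libraries, 2 in DESeq2 and 1 in limma voom, and 0 to 1 when each library was left out. All genes called higher, 76 as reported, numbered 50 without a filter, 158 with the 10 CPM filter, 414 in DESeq2, 121 in limma voom, 2 with the label suffix as a covariate, 1 with libraries of a shared label number summed and 4 to 74 with a library left out (4 without DMSO 3). All genes called lower, 123 as reported, numbered 290 with the 10 CPM filter, 452 in DESeq2, 1 with the suffix, 0 with summed libraries and 5 to 146 with a library left out (5 without DMSO 3). Other pathway genes called higher, 1 as reported, numbered 2 in DESeq2 and 0 with summed libraries; those called lower, 1 as reported, numbered 3 with upper quartile scaling, 7 with the 10 CPM filter, 9 in DESeq2, 3 in limma voom, 0 with the suffix, 0 with summed libraries and 0 to 1 with a library left out. DMSO 1 alone against Yoda1, chosen after seeing the data, gave 0 calls of any kind; it leaves 1 DMSO library, assumed to vary like the Yoda1 libraries. Fewer libraries enter the summed fit and the fits that leave libraries out. The suffix covariate set DMSO 1 and 2, with suffix 0, apart from all other libraries. Its Yoda1 changes, also those given below, thus rest on DMSO 3 as the only control library. The cause of the other moves was not tested.

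Among the members and the other pathway genes named, signs turned for those with small or unstable changes. With upper quartile scaling the log2 change was 0.00 (negative before rounding) for Kars and -0.03 for Wars, with the 10 CPM filter -0.01 for Wars, with the suffix 0.15 for Qars, 0.86 for Cebpb and 0.29 for Eif2ak3, and against DMSO 1 alone 0.07 for Lars, 0.14 for Rars, -0.11 for Wars and 0.16 for Chac1. With a library left out it ran from -0.01 to 0.20 for Cars, -0.24 to 0.02 for Gars, -0.06 to 0.13 for Kars, -0.10 to 0.01 for Lars, -0.33 to 0.13 for Qars, -0.03 to 0.10 for Wars, -0.12 to 0.03 for Yars, -0.15 to 0.64 for Trib3, -2.22 to 0.23 for Cebpb, -0.25 to 0.13 for Eif2ak3 and -0.11 to 0.01 for Mars1. No paired analysis was possible because the groups share no replicate number. Depth limits Atf5, which had 1 to 33 counts in a library and was not tested.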
